A study of Rattus norvegicus with 24 samples.

Results

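Myh6 and Myh7 encode the cardiac myosin heavy chains, the motor proteins of the thick filament in heart muscle. They are 2 of the 32883 rat gene IDs in the count table, ENSRNOG00000025757 for Myh6 and ENSRNOG00000016983 for Myh7. Both were picked by ID, and the values that chose them were their CPM in each library (read counts scaled to a common library size) and the ratio of their counts across the groups. The table lists IDs without symbols, so these 2 names rest on the choice of IDs and were not checked against an annotation. RNA had been sequenced from the left ventricle of Sprague Dawley rats, an outbred strain, in 24 libraries, 6 per group. In the MI group the heart had a myocardial infarction, the death of heart muscle after loss of its blood supply, and no patch. The Sutured patch group had an infarct and a patch fixed with sutures, and the Microneedle patch group an infarct and a patch held by microneedles. Sham hearts are the operated controls. Per the labels, tissue came from the infarct region 7 days after infarction and patch implantation. The sources used here do not give the matching site in Sham hearts, the rats' age, what the patches contained, or whether each library came from its own rat. If libraries share a rat, their spread does not measure differences between rats.

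The alpha heavy chain, made from Myh6, has the faster ATPase and predominates in the ventricle of adult rats and mice. The beta heavy chain, made from Myh7, is slower and more economical, predominates in the rodent ventricle before birth, and is a widely used marker of cardiac stress when it returns in the adult. Thyroid hormone favours Myh6 over Myh7. The genes lie in tandem: in the RefSeq annotation of GRCr8 they are neighbours on chromosome 15, with 0 protein-coding genes between them. Each also carries a microRNA inside its own transcription unit, miR-208a in Myh6 and miR-208b in Myh7, so that each microRNA is transcribed together with its host. Their mature 3′ arms from RefSeq are printed here to show how alike the products of the pair are; capitals mark the seed, bases 2 to 8, which selects targets.
rno-miR-208a-3p: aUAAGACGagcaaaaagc
rno-miR-208b-3p: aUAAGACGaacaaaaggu
The first lies at chr15:32395568-32395585 and the second at chr15:32421648-32421665 (GRCr8, minus strand, inside the host gene and on its strand); these are not positions in rn6, the build named for the counts. The 18 bases differ at 3 places, G10A, A16G and C18U, counted from the 5′ end with the base of miR-208a-3p first, and the seed is shared. Of 724 mature rat microRNAs in that table, these 2 carry this seed. The microRNAs were not measured in the values used here.

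Depth and complexity differed between Sham and the other groups. Total counts were 5443782 to 11757562 in Sham libraries and 12574300 to 14552623 in the other 18, and Sham replicates 4 and 5 had the fewest detected genes, 14079 and 13635. The lowest count behind any Myh6 or Myh7 value was 192, so counting error was small beside the spread between libraries. In bulk tissue fewer heart muscle cells and less RNA per cell cannot be told apart. Markers of other cell types were not analysed here, since none of the IDs was paired with a symbol.

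Myh6 was highest in Sham and successively lower in MI, under the sutured patch and under the microneedle patch. In Sham its level was 1761 CPM in the lowest library, 4774 at the median and 12099 in the highest. In MI it was 717, 1413 and 3788 CPM. The sutured patch libraries held 18.4, 271.2 and 1508 CPM, and the microneedle patch libraries 13.9, 41.1 and 128 CPM. Every microneedle patch library therefore lay below every MI library and every Sham library, and every sutured patch library lay below every Sham library. Among all 14540 genes tested, 8.34% had all microneedle patch libraries below all MI libraries, 10.5% had them all below Sham, and 7.68% had all sutured patch libraries below Sham. Neighbours in the order overlapped: 4 of 6 Sham libraries lay above all MI libraries, 2 of 6 MI libraries above all sutured patch libraries, and 5 of 6 sutured patch libraries above all microneedle patch libraries. As group means (± SD, n = 6 each), Sham held 6171 ± 4452 CPM and MI 1745 ± 1063, while the sutured patch group held 523 ± 582 and the microneedle patch group 53.0 ± 39.2. The difference in means was smaller than the larger SD between Sham and MI and between the patches, and larger between MI and the sutured patch.

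Myh7 followed another order, with its highest level in MI. In Sham its level was 330.2 CPM in the lowest library, 476 at the median and 2173 in the highest. In MI it was 838, 1476 and 2490 CPM. With the sutured patch it was 52.2, 488 and 2290 CPM, and with the microneedle patch 146, 234 and 384 CPM. The microneedle patch libraries all lay below the MI libraries, a separation that 8.34% of the genes tested showed in that direction. They overlapped Sham, where 4 of 6 libraries lay above all of them. MI and Sham overlapped through 2 Sham libraries: replicate 4 stood at 2173 CPM, above 5 of 6 MI libraries, and replicate 1 at 855, above the lowest MI library only. The means were 1593 ± 582 CPM in MI, 774 ± 714 in Sham, 731 ± 811 under the sutured patch and 251 ± 99.7 under the microneedle one (± SD over 6 libraries). Sham and the sutured patch group, neighbours in this order, differed by less than their spread, and so did the sutured and microneedle patch groups.

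**Figure D1:**
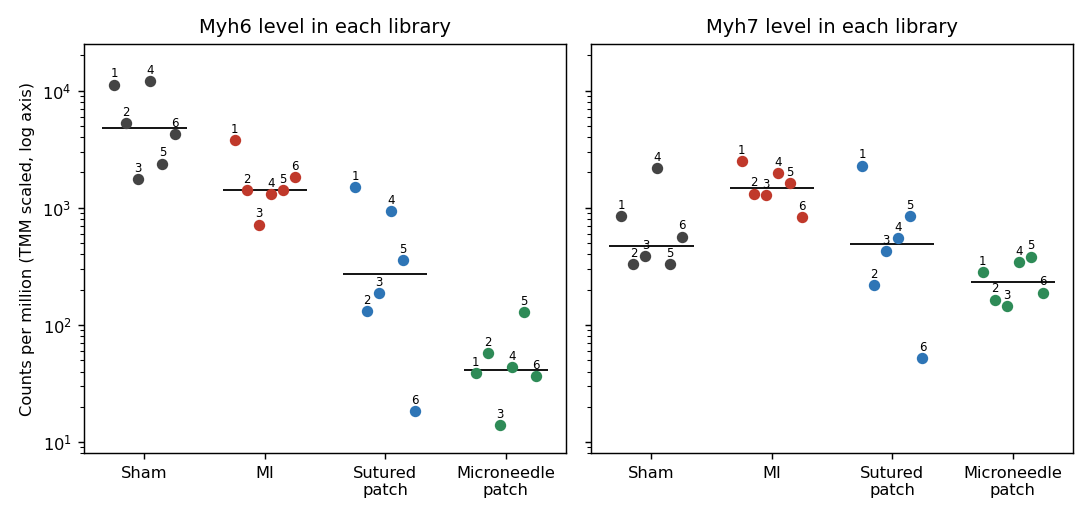
Level of Myh6 (left) and Myh7 (right) in CPM on a log axis, 1 point per library with its replicate number, and the group median as a line. Myh6 steps down from a median of 4774 in Sham to 41.1 with the microneedle patch, whereas the Myh7 median is highest in MI, at 1476.

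Together the myosin heavy chain transcripts were 0.67% ± 0.47 (SD, n = 6) of each Sham library and 0.34% ± 0.16 of each MI library. In the patch groups they were 0.13% ± 0.14 (sutured) and 0.030% ± 0.014 (microneedle). Their summed level overlapped between Sham and MI, where 2 of 6 Sham libraries lay above every MI library. With the microneedle patch the sum ranged from 159 to 511 CPM, below the lowest MI library at 2008 CPM and the lowest Sham library at 2145 CPM. Of single genes tested, 8.34% lay as fully below MI and 10.5% as fully below Sham.

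The ratio of Myh6 to Myh7 counts within a library needs no scaling by depth. It is not corrected for transcript length, which is the same in every library, so that the ratio is read between groups and not against 1. In Sham there were 4.58 Myh6 counts per Myh7 count in the lowest library, 7.35 at the median and 16 in the highest. In MI the ratio was 0.56, 0.97 and 2.19. With the sutured patch it was 0.35, 0.51 and 1.72, and with the microneedle patch 0.095, 0.17 and 0.35. Sham lay above all 18 other libraries, and the microneedle patch below all 18 others. The separation of the patches was narrow, 0.352 in sutured patch replicate 6 against 0.349 in microneedle patch replicate 2. MI and the sutured patch overlapped, with 1 of 6 MI libraries above all of the sutured patch and 3 of 6 sutured patch libraries below all of MI.

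In log2 units the ratio averaged 3.02 ± 0.70 for Sham and 0.03 ± 0.74 for MI (SD, n = 6). The sutured patch group averaged -0.76 ± 0.82 and the microneedle patch group -2.45 ± 0.77. The difference was -3.00 (SE 0.42) between MI and Sham, a 7.97-fold lower ratio in MI. It was -0.79 (SE 0.45) between the sutured patch and MI, smaller than the SD of the sutured patch group. Between the microneedle patch and MI it was -2.48 (SE 0.44), a ratio 5.57-fold lower with the patch, and between the microneedle and the sutured patch -1.69 (SE 0.46). No test is given for these levels and ratios, because the pair was chosen with them in view.

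To place the ratio, every other gene with a mean of at least 10 CPM was set over Myh7 in the same way. Of these 9913 genes, 6.42% had a ratio to Myh7 that was lower in all MI libraries than in all Sham libraries. For the microneedle patch against MI the share was 0.0202%, which is 2 genes with Myh6 among them, and for the microneedle against the sutured patch it was 0.0807%. Set against Sham, 0.656% of genes separated the sutured patch and 1.18% the microneedle patch. These shares depend on the level and spread of Myh7 itself in each group. Myh7 was 2.06-fold higher in MI than in Sham, which lowers any gene's ratio to it, and 6.34-fold lower with the microneedle patch than in MI, where 1.35% of all genes tested had a lower log2 fold change, so that few genes could have a lower ratio to it.

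**Figure D2:**
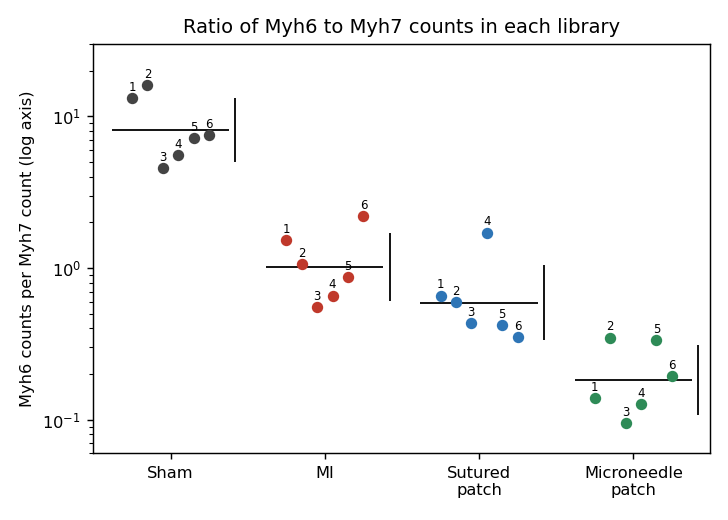
Myh6 counts per Myh7 count in each library on a log axis, with replicate numbers; horizontal lines are geometric means and vertical bars 1 SD of the log2 ratio on either side. Sham libraries lie between 4.58 and 16 and microneedle patch libraries between 0.095 and 0.35, with no overlap with any other group.

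As a share of the 2 transcripts, Myh6 accounted for 88.3% ± 4.62 of the pair in Sham (SD, n = 6) and 50.4% ± 12.5 in MI. Its share was 37.7% ± 13.5 under the sutured patch and 16.5% ± 7.31 under the microneedle patch. Counting error was far smaller than these differences. The lowest share, 8.70% in microneedle patch replicate 3, had a 95% Wilson interval of 7.59 to 9.95%, and the highest, 94.1% in Sham replicate 2, one of 93.9 to 94.3%. These intervals describe counting error alone and take each read as independent, so duplicate reads would make them too narrow. The coding sequences of the pair are similar but were not compared here, and the sources used here do not say how reads matching both were counted. The libraries limit a constant leak between the genes. At most 5.88% of Myh6 reads could have been counted as Myh7, since that is all the Myh7 seen beside Myh6 in Sham replicate 2. At most 8.70% of Myh7 reads could have been counted as Myh6, from microneedle patch replicate 3.

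**Figure D3:**
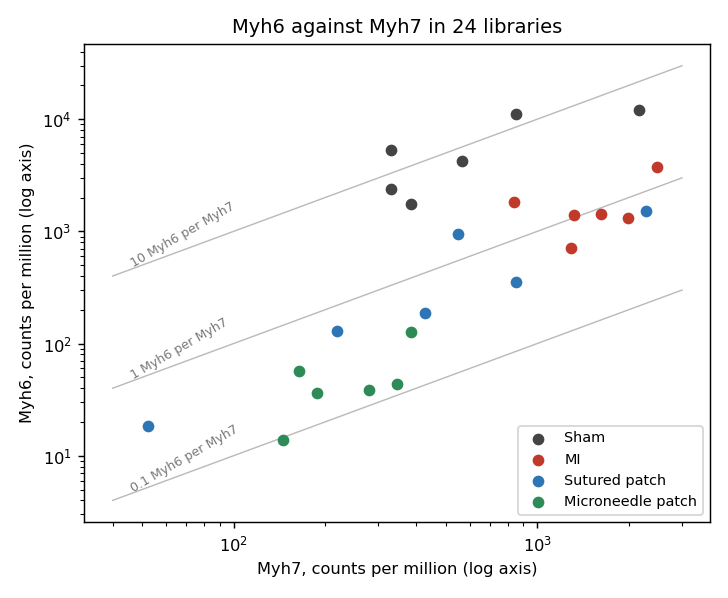
Myh6 against Myh7 in CPM, both axes log, 1 point per library coloured by group; grey lines mark 0.1, 1 and 10 Myh6 counts per Myh7 count. Sham libraries lie highest for a given Myh7 level and microneedle patch libraries lowest, and the sutured patch libraries stretch along the lines from 52.2 to 2290 CPM of Myh7.

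The fold changes came from an edgeR fit over all genes and are given as descriptions. Between MI and Sham, Myh6 had a log2 fold change of -1.82 (SE 0.70), 3.54-fold lower in MI, while Myh7 had one of 1.04 (SE 0.58), 2.06-fold higher. Without Sham replicate 4 the Myh7 value was 1.69, and without Sham replicates 4 and 5, left out after the data were seen, 1.60. In that comparison 3.67% of genes had a lower log2 fold change than Myh6 and 16% a higher one than Myh7, while 44.7% were called changed in either direction (edgeR quasi-likelihood F test, adjusted p under 0.05). Of the 4 comparisons fitted, this was the one in which the heavy chains lay on opposite sides of 0; in the other 3, between a patch and MI or between the patches, both were below 0.

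Between the sutured patch and MI the log2 fold change was -1.74 (SE 0.70) for Myh6 and -1.12 (SE 0.58) for Myh7, in a comparison where 4.55% of genes were called. Sutured patch replicate 1, with the highest level of both genes in its group, weighed on these values: without it they were -2.40 and -1.90. Without sutured patch replicate 6, with the lowest level of both, they were -1.48 and -0.88. Leaving out any 1 library of these groups gave -2.40 to -1.35 for Myh6 and -1.90 to -0.88 for Myh7. Between the microneedle patch and MI, Myh6 was 32.9-fold lower, at -5.04 (SE 0.81), and Myh7 6.34-fold lower, at -2.67 (SE 0.61). Only 8 of the 14540 genes, 0.055%, had a lower log2 fold change than Myh6 there, and 1.35% a lower one than Myh7, with 14.5% of genes called. Between the microneedle and the sutured patch the values were -3.30 (SE 0.74) for Myh6 and -1.54 (SE 0.59) for Myh7, where 0.316% of genes were called and 0.138% lay below Myh6. Without sutured patch replicate 1 they were -2.62 and -0.74. Over all libraries left out 1 at a time they ranged from -3.78 to -2.62 and from -1.79 to -0.74. The median of all genes tested was between -0.042 and 0.021 in the 4 comparisons. Comparisons that share a group share its libraries, so their values for these genes are not independent.

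**Figure D4:**
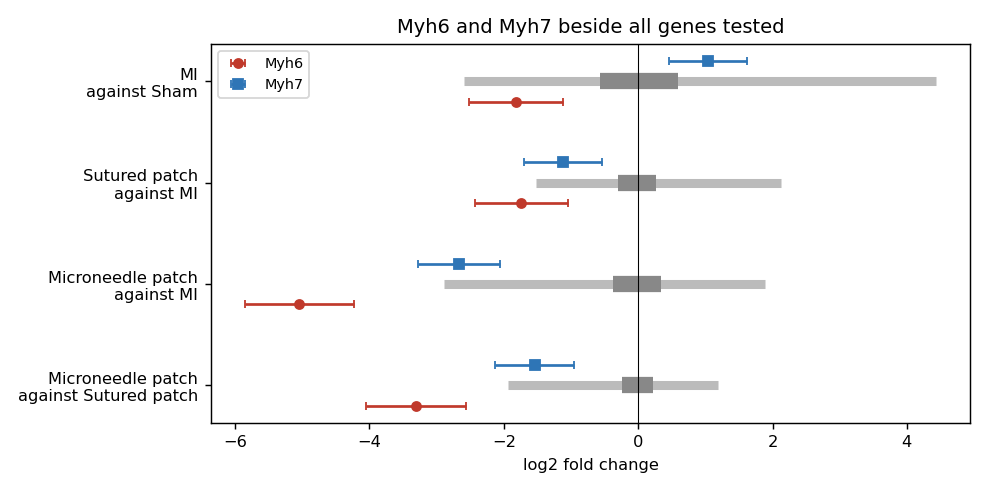
log2 fold changes of Myh6 (circles) and Myh7 (squares) with 1 SE on either side, beside all 14540 genes tested; light bars run from the 1st to the 99th percentile and dark bars from the 25th to the 75th. Myh6 lies below the light bar in the 3 comparisons with a patch, and Myh7 lies above 0 in MI against Sham and below 0 in the others.

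Libraries of the same group differed more in the heavy chains than in most abundant genes. With the sutured patch Myh6 spanned 82.2-fold and Myh7 43.9-fold between the lowest and the highest library. The SD of log2 CPM there was 2.27 for Myh6 and 1.85 for Myh7, against a median of 0.28 over the 2047 genes with a mean of at least 100 CPM, of which 1 had a larger SD than Myh6 and 8 a larger one than Myh7. In MI the SD was 0.78 for Myh6 and 0.55 for Myh7 beside a median of 0.15, and 1.61% and 5.23% of genes had larger ones. Sham was spread more widely in general, with a median SD of 0.48, and there Myh6 had 1.14 and Myh7 1.06. With the microneedle patch Myh6 had 1.03 and Myh7 0.58 beside a median of 0.26. The ratio varied less than the Myh6 level where the level varied most: it spanned 4.88-fold with the sutured patch, and between 3.49- and 3.94-fold in the other groups. Beside Myh7 the ratio varied less with the sutured patch and in Sham, where Myh7 spanned 6.58-fold. It varied more than Myh7 in MI, 3.94- against 2.97-fold, and with the microneedle patch, 3.66- against 2.64-fold.

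Within each group the levels of the 2 genes were set against each other over its 6 libraries, as a description with no test, since the pair was chosen with these levels in view. Pearson's r of log2 CPM was 0.94 with the sutured patch and Spearman's rho 0.94. It rests partly on the extremes, since r was 0.65 without sutured patch replicates 1 and 6, the 2 libraries farthest from the median of Myh6. In Sham r was 0.80 and rho 0.71, and r was 0.78 without replicates 3 and 4. With the microneedle patch r was 0.68 and rho 0.66, but r was -0.39 without replicates 3 and 5. MI gave r = 0.42 and rho 0.26, with r = -0.96 over the 4 libraries left without replicates 1 and 3. In these 2 groups the sign of r thus rests on the libraries named. Whether the groups differ in this was not tested. Both levels are scaled by the same library size, which they share.

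With Sham included, many genes had a profile like that of Myh6, and few one like that of Myh7. Over 24 libraries, 157 of 9913 genes (1.58%) had a Pearson r of log2 CPM with Myh6 of at least 0.9, against 4 genes with Myh7. The most alike to Myh6 were ENSRNOG00000016837 (r = 0.99) and ENSRNOG00000017833 (r = 0.98); the tenth most alike still had r = 0.98. ENSRNOG00000016837 averaged 1164 CPM in Sham and 289.6 in MI, then 98.9 under the sutured and 16.3 under the microneedle patch, the order seen for Myh6. For Myh7 the most alike were ENSRNOG00000019482 (r = 0.92) and ENSRNOG00000011659 (r = 0.91), and the tenth had r = 0.89. ENSRNOG00000011659 averaged 62.4 CPM in Sham and 65.7 in MI, then 24.7 under the sutured and 12 under the microneedle patch. The lists of 10 shared 0 genes, and the lists of the 100 most alike shared 21. With each other Myh6 and Myh7 had r = 0.73, by which Myh7 ranked 825th in likeness to Myh6. Without Sham, r was 0.92 over 18 libraries and Myh7 ranked 178th. There 248 genes reached 0.9 with Myh6 and 187 with Myh7, so the contrast between the genes was much smaller. After the group means were taken away r was 0.85. These values describe libraries that share group and depth differences, and carry no test.

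Fold changes were also set beside those of the most alike genes, first for Myh6. Of the 157 genes with r of at least 0.9, 156 had a log2 fold change below 0 in MI against Sham, with a median of -1.38, and 43 lay below Myh6. Between the microneedle patch and MI all 157 were below 0, with a median of -2.60 and a lowest value of -4.18, so that 0 of them lay below Myh6 at -5.04; Myh7 at -2.67 lay near their median. Between the patches the median was -1.57, and again 0 lay below Myh6. Among all 14540 genes tested, 3.67% lay below Myh6 in MI against Sham. The share was 0.055% for the microneedle patch against MI and 0.138% between the patches, so most lists of this size would hold few such genes or none. In MI against Sham, Myh7 at 1.04 lay above all 157, whose highest value was 0.01. The genes were chosen by likeness over these libraries, so their direction, and their place relative to Myh6, are set in part by that choice. The 10 genes most alike to Myh7 had median log2 fold changes of -0.25 in MI against Sham, where 8 of 10 were below 0, and of -2.43 between the microneedle patch and MI; 0 of the 10 reached the Myh7 value of 1.04 in MI, their highest being 0.25.

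**Figure D5:**
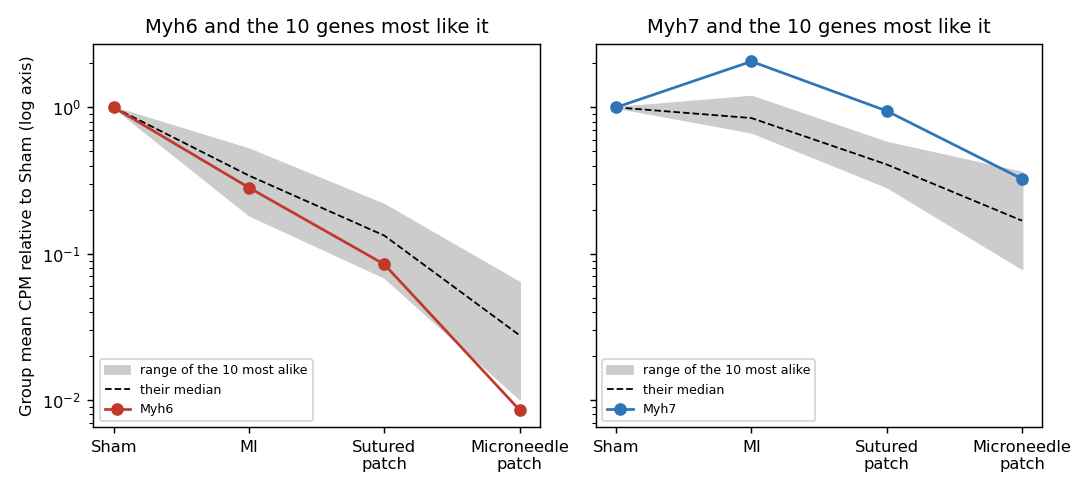
Group mean level relative to Sham on a log axis for Myh6 (left) and Myh7 (right), with the range and median of the 10 genes most alike to each over 24 libraries. The 10 genes like Myh6 stand at a median of 0.34 of Sham in MI and 0.028 with the microneedle patch; the 10 like Myh7 stand at a median of 0.85 in MI, where Myh7 itself was 2.06-fold above Sham.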

How the data were processed

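Per the submitters' processing notes, the authors aligned reads to rn6 with tools that include HISAT2 and featureCounts and deposited raw counts for each Ensembl ID and library. The sources used here do not give versions, annotation, strand or the handling of reads with several matches. Columns were assigned by the code in each sample title. Genes were kept by filterByExpr (minimum count 10), leaving 14540 genes with 99.6% to 99.9% of counts. All 24 libraries entered 1 edgeR 4.0.16 fit (R 4.3.3, TMM scaling, 4 group means, robust quasi-likelihood); its fold changes with standard errors are given, and p-values, adjusted by Benjamini-Hochberg, serve only for the share of genes called. CPM use TMM-scaled totals. Ratios used a pseudocount of 0.5 on the log2 scale, and log2 CPM for likeness a prior count of 2. The exact permutation test designed for the correlation of the genes within a group is not reported, as it runs on the levels by which they were chosen. Named genes are both myosins and, since 0 IDs matched a symbol, the 2 IDs most alike to each among genes with a mean of at least 10 CPM. The 20 gene lists of sarcomere, regulator and cell type genes could not be matched, and 0 were run. The members and lists were chosen with earlier results of these data known. Alternatives were other scalings, no filter, DESeq2 1.42.0, fits of 2 groups, thinning, another pseudocount, a replicate block and leaving out libraries.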

Additional observations from a re-analysis of the deposited data

Results flagged for a closer look

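Myh6 CPM, Myh7 CPM and their ratio were checked in each group, 12 sets of 6 libraries. Of these, 4 held a library far from the other 5. The criterion, Dixon's at 95%, served only to pick libraries for a closer look. Its rate of about 1 in 20 sets by chance holds for independent, normally distributed values. These sets share CPM values, are skewed and hold the values by which the pair was chosen. The count of 4 is therefore not compared with that rate. Myh7 stood at 2173 CPM in Sham replicate 4, with the next Sham library at 855. That library also had the highest Myh6 level of its group, 12099 CPM, and 14079 detected genes, the second fewest of all libraries; the part of this in the Myh7 value was not tested. Myh6 stood at 3788 CPM in MI replicate 1, with the next MI library at 1833, and the same library had the highest Myh7 level of all 24, 2490 CPM. Myh7 stood at 2290 CPM in sutured patch replicate 1, with the next of its group at 850; its Myh6 level, 1508 CPM, was also the highest of its group, and its ratio of 0.66 lay among the others. The ratio itself was far from the rest in sutured patch replicate 4, with 1.72 Myh6 counts per Myh7 count against 0.66 in the next library, from a Myh6 level of 939.9 CPM and a Myh7 level of 548.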

How the results depend on the processing

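Every difference of Myh6, of Myh7 and of their ratio kept its sign under each alternative run and moved by less than 1 SD between libraries. That SD is a loose limit for the sutured patch group, whose libraries were widely spread. For Myh7 in the sutured patch against MI the SD was 1.36 and the difference -1.12. Between the patches the SD for Myh7 was 1.37, and the value moved from -1.54 to -0.74 without sutured patch replicate 1. Over the other scalings, no filter, DESeq2, fits of 2 groups and thinning, the Myh6 log2 fold change between the microneedle patch and MI was -5.09 to -5.04 and that of Myh7 -2.69 to -2.67. Leaving out 1 library gave -5.52 to -4.66 and -2.83 to -2.49. For MI against Sham it gave -2.20 to -1.51 for Myh6, 0.87 to 1.69 for Myh7 and -3.22 to -2.80 for the log2 ratio. For the sutured patch against MI the ratio ranged from -1.09 to -0.56, for the microneedle patch against MI from -2.66 to -2.26 and between the patches from -1.88 to -1.39. The correlation of the genes with the sutured patch was 0.84 to 0.99 with 1 library left out, lowest without replicate 6. In MI r ranged from -0.27 to 0.83. The replicate numbers are shared across groups, but nothing in the labels says that they pair libraries. Same-numbered libraries deviated together (r above 0.1) in 19 of 36 pairs, and no such share is at hand for libraries with different numbers. In 13 of the 36 pairs the same-numbered library was the best match among the 6 of the other group, where 1 in 6 would match at random. By pair of groups this held for 1 to 3 of 6. Whether the numbers mark a pairing or a batch was not tested. With a replicate block the Myh6 values were -1.67, -2.18, -5.0 and -2.82 and the Myh7 values 1.19, -1.53, -2.65 and -1.12, in the order MI against Sham, each patch against MI (sutured first) and microneedle against sutured patch. With 6 libraries per group, the block changes only the SE of the log2 ratio differences. It fell for MI against Sham (0.42 to 0.28) and microneedle patch against MI, and rose in the others. The genes called between the patches rose from 46 to 159 with the block. Counts of genes called moved more: between the patches DESeq2 called 419, no filter 28, and leaving out 1 library gave 0 to 198. For the sutured patch against MI, 661 became 2141 in a fit of the 2 groups, 1130 with DESeq2 and 308 to 966 without 1 library; for the microneedle patch against MI, 2112 became 4593 in a fit of the 2 groups and 1036 to 2549 without 1 library. The lists of genes most alike changed with the measure: by Spearman's rho 2 of the 10 for Myh6 and 6 of the 10 for Myh7 stayed, without Sham 3 of each, and with the group means taken away 7 of the 10 for Myh6 and 1 of the 10 for Myh7.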
